A study of Mus musculus with 4 samples.

Results

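CpG islands are short stretches of the genome rich in CpG, and the 1470 islands that the authors' deposited table lists as intergenic were examined here, of 16009 islands in all. The table types each island by where it lies, and every row with the feature island and the type intergenic was taken. Another 10692 islands were listed at transcription start sites and 3847 inside genes, and with shores and shelves the table held 80045 features. The intergenic islands lay 500 to 1545013 bp from the start of the gene they are listed under, with a median of 14814 bp. The listed gene is thus often a neighbour and not the site, though some islands overlap the gene itself. Reduced representation bisulfite sequencing (RRBS) was applied to 2 netrin-1 libraries and 2 control libraries of the mouse embryonic stem cell line CGR8. Netrin-1 cells carried a stable ppy-cagg-netrin-ires-puro vector with a netrin-1 transgene, control cells carried the empty ppy-cagg-ires-puro vector, and both were kept in serum with LIF. The label of the netrin-1 libraries says that the transgene is expressed, yet it also calls that vector empty. Whether each group was a pool or a clone, and whether replicates were separate cultures, is not stated in the labels, so the spread between libraries may be technical. The transgene itself is not measured by these data.

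Most CpG islands of mammalian cells are free of methylation, including many far from known genes, some of which are starts of unannotated or tissue-restricted transcripts. Methylated islands are known at the silent allele of imprinted genes, at germline genes and on repeats and retrotransposed gene copies. Embryonic stem cells in serum and LIF have a mostly methylated genome with unmethylated islands, and methylation there is placed by DNMT3A and DNMT3B, kept by DNMT1 and removed through the TET enzymes. Netrin-1 is a secreted guidance protein that signals through DCC, neogenin and UNC5 receptors.

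RRBS reads start at CCGG, the site cut by the enzyme MspI, so an island yields values where it holds such sites. Of 32851 RefSeq promoters of 300 bases (250 before to 50 after a start; CCGG read on both strands, as it is its own reverse complement), 52.8% held CCGG, and of the 245 that overlap an intergenic island 89.4% did. Promoter sequences from RefSeq (GRCm38.p6) inside 3 of the islands are printed 5′ to 3′ with CCGG in capitals. The sequences of Vmn2r29 and Gm51701 lie in both of the islands that were called and hold a RefSeq start, and that of Creb5 lies in an unmethylated island for comparison. Vmn2r29, a vomeronasal receptor gene, has its promoter on the minus strand at chr7:7278240-7278539, with 23 CpG and 6 CCGG, in the island listed under Mir5620. Gm51701, a long noncoding RNA gene, has it on the plus strand at chr9:123924898-123925197, with 14 CpG and 1 CCGG, in the island listed under Ccr1. Creb5, a gene of the CREB family of transcription factors, has it on the plus strand at chr6:53287053-53287352, with 31 CpG and 4 CCGG, in the island listed under Jazf1.
Vmn2r29: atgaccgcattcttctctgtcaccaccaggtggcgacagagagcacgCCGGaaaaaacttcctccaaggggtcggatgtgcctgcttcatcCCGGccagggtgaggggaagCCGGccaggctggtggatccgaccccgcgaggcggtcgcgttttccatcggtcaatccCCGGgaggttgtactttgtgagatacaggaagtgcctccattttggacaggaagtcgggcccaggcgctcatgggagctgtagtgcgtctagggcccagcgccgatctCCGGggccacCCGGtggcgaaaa
Gm51701: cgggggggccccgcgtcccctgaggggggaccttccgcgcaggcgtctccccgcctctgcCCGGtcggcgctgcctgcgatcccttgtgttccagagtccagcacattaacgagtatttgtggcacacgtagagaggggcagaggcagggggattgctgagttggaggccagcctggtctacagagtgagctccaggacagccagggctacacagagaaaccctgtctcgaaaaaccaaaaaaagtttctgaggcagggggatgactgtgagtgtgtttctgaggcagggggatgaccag
Creb5: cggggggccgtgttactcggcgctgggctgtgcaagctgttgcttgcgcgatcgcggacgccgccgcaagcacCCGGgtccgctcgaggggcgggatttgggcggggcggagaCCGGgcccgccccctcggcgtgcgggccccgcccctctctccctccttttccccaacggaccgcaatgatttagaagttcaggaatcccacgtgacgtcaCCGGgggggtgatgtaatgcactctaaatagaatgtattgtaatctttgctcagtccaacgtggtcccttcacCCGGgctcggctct
The Creb5 promoter's island had a level of 1.19% and 0.928% in the netrin-1 libraries, against 0.933% and 0.551% in the control libraries, from at least 2359 calls in each. The islands of the other promoters were highly methylated in all 4 libraries and are described with the called islands. A call is a read of 1 cytosine, and the level is the percentage of calls that were methylated.

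Of the 1470 islands, 1179 had calls in all 4 libraries, 228 had none in any, and 40 were at 0% in all 4. Depth over all features was 23255824 and 36121770 calls in the netrin-1 libraries, against 20593294 and 27346303 in the control libraries. Intergenic islands held 1109460 and 1750939 of these calls in the netrin-1 libraries and 966653 and 1283656 in the control libraries. The median covered island held 359 and 572.5 calls in the netrin-1 libraries, against 321 and 430 in the control libraries. Promoters of 9 pluripotency genes with at least 10 calls had mean levels of 0.207% to 32.1% in netrin-1 cells and 0% to 30.6% in control cells. In both groups 2 of the 9 were over 20%, Esrrb and Dppa3, and promoter methylation does not measure expression. At Esrrb the netrin-1 libraries had 49.4% and 14.8% and the control libraries 51.7% and 9.43%. Promoters of 4 trophoblast and 4 endoderm genes were low too, at most 5.93% and 5.88% in netrin-1 cells and 7.42% and 5.11% in control cells. Those of 4 fibroblast genes reached 28.2% in netrin-1 cells and 16.5% in control cells. These levels thus do not tell cell types apart.

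Intergenic islands were mostly unmethylated in both groups, and the mean level was lower in both netrin-1 libraries than in both controls. The unweighted mean over 1179 islands was 3.66% and 3.37% in the netrin-1 libraries (3.51% ± 0.208, SD, n = 2), against 4.18% and 4.28% in the control libraries (4.23% ± 0.0697, SD, n = 2). The difference was -0.713 percentage points. An exact two-sided permutation test over libraries gave p = 0.33, the smallest that 2 libraries against 2 allow. The median island stood at 1.07% in netrin-1 cells and 1.25% in control cells. With all calls pooled, the order turned to 3.98% in netrin-1 cells and 3.73% in control cells, with overlapping groups. The island with the most calls, listed under Yam1, held 323704 to 619394 of them per library, and without it the pooled difference was 0.0806 points.

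**Figure D1:**
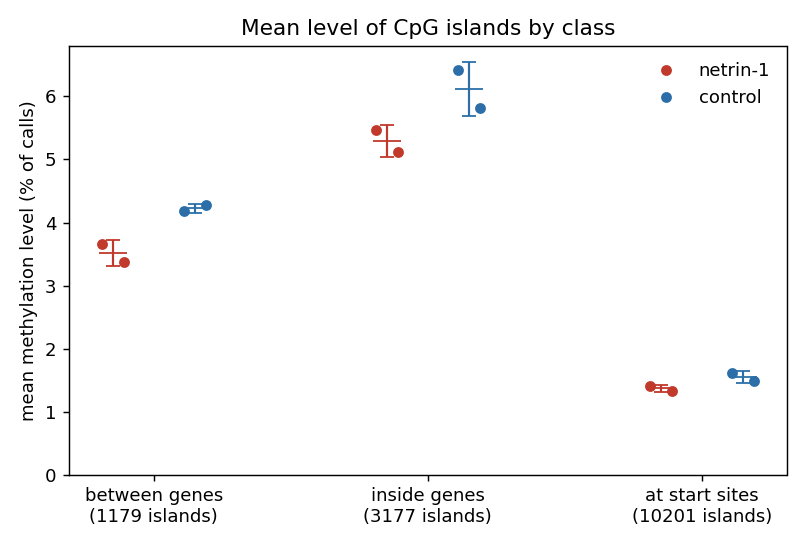
Mean methylation level per library, in percent of calls, of CpG islands between genes, inside genes and at transcription start sites. Points are the 2 libraries of a group and bars the mean ± SD; intergenic islands lie at 3.37% and 3.66% in netrin-1 libraries, below both control libraries at 4.18% and 4.28%.

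The question of whether intergenic islands differed between groups more than other islands was put to the gap between classes within each library. Islands inside genes averaged 5.29% in netrin-1 cells and 6.11% in control cells, and those at start sites averaged 1.37% in netrin-1 cells and 1.55% in control cells. The gap from intergenic to start site islands was 2.25 and 2.03 points in the netrin-1 libraries, against 2.57 and 2.79 points in the control libraries. It was thus narrower in both netrin-1 libraries, by -0.536 points (exact two-sided permutation p = 0.33). The gap from intergenic to intragenic islands differed by 0.107 points with overlapping groups (exact two-sided permutation p = 1) and had the opposite sign, -0.245, without control replicate 1. Weighted by calls, the change of the gap to start site islands was 0.377 points, so its direction also rests on how islands are averaged.

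The lower netrin-1 mean lay in islands of low and intermediate level. To see this, islands were divided by their mean level over all 4 libraries. The 449 islands under 1% averaged 0.585% in netrin-1 cells and 0.604% in control cells, with overlapping groups. The 546 islands of 1 to 5% averaged 1.74% in netrin-1 cells and 2.32% in control cells. From 5 to 10%, 85 islands averaged 5.86% in netrin-1 cells and 7.74% in control cells. In each of these steps above 1% both netrin-1 libraries lay under both controls. The 53 islands of 10 to 20% averaged 11.96% ± 0.125 in netrin-1 cells and 17.0% ± 1.73 in control cells (SD, n = 2 each). The 26 islands of 20 to 40% averaged 24.4% ± 1.02 in netrin-1 cells and 32.1% ± 3.22 in control cells (SD, n = 2 each). In the 10 to 20% step, 22 of the 53 islands had both netrin-1 libraries under both controls and 2 had both over them. In the same step these counts were 60 and 24 of 215 intragenic islands, and 7 and 10 of 67 start site islands. For intergenic islands they were 154 and 56 of 546 from 1 to 5%, and 28 and 8 of 85 from 5 to 10%. From 20 to 40% they were even, at 5 and 5 of 26. Over all features with at least 10 calls, whatever their level, the shares were 23.6% and 11.2%.

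At the top of the range the order of the means was the other way. The 13 islands of 40 to 60% averaged 49.4% in netrin-1 cells and 44.1% in control cells, with overlapping groups. Of these 13, 7 were lower and 6 higher in netrin-1 cells, so only their mean turned. The 7 islands over 60% stood at 76.0% and 72.8% in the netrin-1 libraries, against 69.1% and 67.4% in the control libraries. Their groups did not overlap, the difference was 6.12 points, and 5 of the 7 were higher in netrin-1 cells (exact two-sided permutation p = 0.33). The 7 included all islands called below, listed under Ccr1, Mir5620 and Gm21748, so this step is not separate from those calls. The largest difference among the 7, of 21.2 points at the island listed under Bicd1, came with overlapping groups. The highest of the 7, listed under 9530052E02Rik (chr8:10978500-10978759), stood at 100% in all 4 libraries but rested on only 4 to 12 calls in each. The 20 intragenic islands over 60% differed by 4.41 points with overlapping groups, and the 3 at start sites by -3.44 points with overlapping groups. All 46 intergenic islands of at least 20% averaged 39.1% ± 3.07 in netrin-1 cells and 41.0% ± 3.25 in control cells (SD, n = 2 each), a difference of -1.90 points within the spread between libraries. That difference had the opposite sign as a median (0.592 points) and without control replicate 2 (0.401 points) or netrin-1 replicate 2 (0.271 points). Nearest to the 20% limit were an island listed under Nkx2-5, at 23.1% in netrin-1 cells and 16.6% in control cells, and one listed under Tbx5, at 19.8% in netrin-1 cells and 20.5% in control cells.

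**Figure D2:**
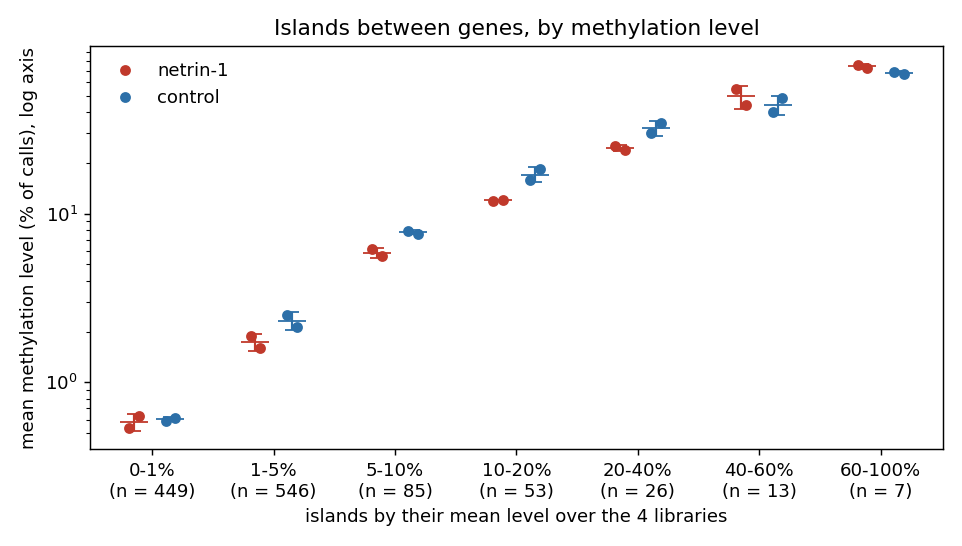
Mean level per library, in percent of calls on a log axis, of intergenic islands grouped by their mean level over the 4 libraries. Points are libraries and bars the mean ± SD; netrin-1 points lie under control points from 1 to 40% and over them above 60%.

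Single islands were tested on their methylated and unmethylated calls with a quasi-binomial model whose dispersion was moderated by limma. Only 122 of the 1470 islands held enough calls and intermediate enough levels to be tested. At a Benjamini-Hochberg adjusted p under 0.05, 3 of the 122 were called, all higher in netrin-1 cells, where 0.186% of all 11815 tested features and 0.46% of all 1522 tested islands were called. Higher calls made up 0.0677% of all features and 0.197% of all tested islands. The 3 islands called higher in the whole table were all intergenic; no island of the other types was called higher, at 17 of 833 start site and 12 of 567 intragenic islands with an unadjusted p under 0.05.

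The island listed under Ccr1, a chemokine receptor gene 43083 bp away, lay at chr9:123924690-123925609 over the start of Gm51701. Its level was 68.0% and 68.1% in the netrin-1 libraries, against 61.4% and 58.7% in the control libraries. Both netrin-1 libraries were above both controls, by 8.03 points on average, with 5390 to 11162 calls per library (limma-moderated adjusted p = 0.00079). The island listed under Mir5620, a microRNA gene 20340 bp away, lay at chr7:7277785-7278551 over the start of Vmn2r29. Its level was 64.8% and 61.7% in the netrin-1 libraries, against 56.5% and 57.3% in the control libraries. The groups again did not overlap, with a difference of 6.37 points (limma-moderated adjusted p = 0.0177). The island listed under Gm21748 lay at chrY:90825141-90829322, with no RefSeq gene over it, and at 4182 bp was the longest of the intergenic islands. Its level was 62.2% and 64.2% in the netrin-1 libraries, against 59.2% and 56.9% in the control libraries. The difference was 5.16 points (limma-moderated adjusted p = 0.0443), and leaving out control replicate 2 or netrin-1 replicate 2 ended the call (limma-moderated adjusted p of 0.185 and 0.288). Whichever library was left out, more islands were called in all than with every library. The count of features called over the whole table also rose, except without netrin-1 replicate 2. Without the robust step of the dispersion estimate 2 islands were called, those listed under Ccr1 and Yam1, and the Mir5620 and Gm21748 islands were not (adjusted p of 0.0617 and 0.0823). None of the 3 was called with an unmoderated dispersion or with limma on percentage points or M values. With no information minimum 18 of 1119 intergenic islands were called, 13 of them lower, where 412 of 42735 features of all kinds were.

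No intergenic island was called lower by the quasi-binomial model, where 14 features of all kinds (0.118%) and 4 islands (0.263%) were. By unadjusted p under 0.05, 19 of the 122 were lower (15.6%), where 10.5% of all features and 11.6% of all islands were, and 10 were higher (8.20%), where 1.53% and 2.56% were. The median difference was -8.30 points among the 19 and 6.44 points among the 10. Closest to the threshold was the island listed under Yam1 at chr17:39843169-39846346, which had the most calls. Its level was 2.48% and 2.18% in the netrin-1 libraries, against 1.88% and 1.42% in the control libraries (limma-moderated adjusted p = 0.0564). This small difference of 0.677 points came with non-overlapping groups.

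Among the lower islands nearest to the threshold, control levels ranged widely. At the island listed under Gm11770 (chr11:120187269-120187720), the netrin-1 libraries had 4.77% and 4.51%, against 9.78% and 9.38% in the control libraries (adjusted p = 0.0678). At the one listed under 2810474O19Rik (chr6:149353655-149353874), they had 8.80% and 9.23%, against 24.0% and 16.5% in the control libraries (adjusted p = 0.0705). Replicates of a group lay close together at Gm11770, while the controls differed by several points at 2810474O19Rik. The one listed under Gpatch2l (chr12:86214338-86214574) had 12.1% and 12.3% in the netrin-1 libraries, against 24.8% and 21.3% in the control libraries (adjusted p = 0.0771). The one listed under Cnnm1, a gene of the cyclin M family of metal transporters, had 2.82% and 7.68% in the netrin-1 libraries, against 18.3% and 18.7% in the control libraries (adjusted p = 0.0887). The one listed under Zfp74, a zinc finger gene, overlaps pseudogenes and had 1.70% and 1.85% in the netrin-1 libraries, against 18.4% and 6.10% in the control libraries (adjusted p = 0.0889). That listed under Tcf7, the transcription factor TCF1 of Wnt signalling, had 7.38% and 9.56% in the netrin-1 libraries, against 12.96% and 20.6% in the control libraries (adjusted p = 0.109). None of these lower islands passed the adjusted threshold.

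**Figure D3:**
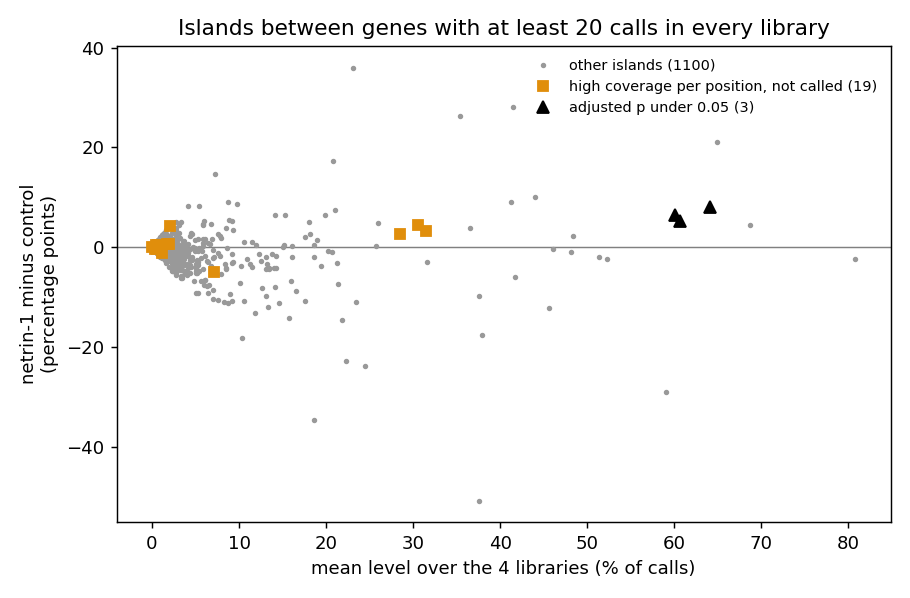
Difference in level, netrin-1 minus control in percentage points, against the mean level over the 4 libraries in percent of calls, for the 1122 intergenic islands with at least 20 calls in every library. Triangles are the 3 called islands, at 5.16 to 8.03 points, and squares are islands of high coverage per position that were not called.

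Counted over the 1149 islands with at least 10 calls in every library, 655 were lower and 463 higher in netrin-1 cells. In 280 of them (24.4%) both netrin-1 libraries lay under both controls, where 23.6% of all features and 20.1% of all islands did. In 155 (13.5%) both lay over both controls, where 11.2% of all features and 13.7% of all islands did. The shares of intergenic islands were thus near those of the whole table. At the limit itself, the 1 island with 9 calls in its least covered library stood at 16.4% in netrin-1 cells and 46.5% in control cells. The 4 islands with 10 calls ranged over 0% to 49.7% in netrin-1 cells and 0% to 44.3% in control cells.

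The 10 lowest and 10 highest differences with non-overlapping groups were taken from the islands with at least 20 calls, so their direction and size are descriptions. The lowest was at the island listed under Gm22852 (chr15:103827186-103827395), which overlaps the pseudogene Gm21178. Its netrin-1 libraries had 8.33% and 16.04% from 24 and 106 calls, against 62.7% and 63.3% from 102 and 109 calls in the control libraries. Next came the island listed under Zfp781, a zinc finger gene, with 0% of 133 calls, which allows up to 2.26%, and 2.56% in the netrin-1 libraries, against 25% and 47.1% in the control libraries. At the third, listed under Barhl2, a homeobox gene of neural development 276064 bp away, levels were 40.3% and 48.7% in the netrin-1 libraries, against 56.5% and 90.6% in the control libraries. The fourth, listed under Gm14461, overlaps the pseudogene Gm14460 and had 6.42% and 18.6% in the netrin-1 libraries, against 25.1% and 47.7% in the control libraries. At Zfp781, Barhl2 and Gm14461 the control replicates also stood far apart from each other. The fifth, listed under Insc, whose product orients the mitotic spindle, overlaps the pseudogene Rps4l-ps and had 14.1% and 7.69% in the netrin-1 libraries, against 30% and 37.3% in the control libraries. The other 5 had differences of -18.2 to -11.2 points and were listed under D130051D11Rik, Gm13212, Cnnm1, 2610044O15Rik8 and 2810474O19Rik. Of these, 2610044O15Rik8 had 38.8% and 40.2% in the netrin-1 libraries, against 50.5% and 52.8% in the control libraries (limma-moderated adjusted p = 0.581), and both replicates of each group lay close together.

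The highest difference was at the island listed under Vmn1r42, a pheromone receptor gene of the vomeronasal organ, with no RefSeq gene over it. Its netrin-1 libraries had 46.2% and 36.1% from 26 and 133 calls, against 0% of 22 calls, which allows up to 13.6%, and 10.3% of 39 calls in the control libraries. The next, listed under Slxl1 on chromosome X had 70.9% and 40% in the netrin-1 libraries, against 27.3% and 27.6% in the control libraries. The third, listed under 2210404O09Rik, overlaps the pseudogene Gm6540 and had 58.3% and 38.7% in the netrin-1 libraries, against 32.4% and 11.9% in the control libraries. In all of these the netrin-1 replicates lay far apart, and calls were few. At Vmn1r42 and 2210404O09Rik the control replicates lay as far apart. Below them, the island listed under Gm15627 overlaps the pseudogene Gm10051 and had 38.6% and 20.2% in the netrin-1 libraries, against 8.79% and 15.5% in the control libraries. Next, the island listed under Calcoco1 had 17.4% and 11.8% in the netrin-1 libraries, against 0% in both control libraries, where 21 and 20 calls allow up to 14.3% and 15%. The remaining 5, at 8.03 to 9.96 points, were listed under Ppp1r26, Vrk1, Cpa6, Shc3 and Ccr1. Of all 20, only the Ccr1 island was called, and 6 of the 10 lowest and 3 of the 10 highest held enough information to be tested. With no information minimum the islands listed under Gm22852 and Zfp781 were called lower (limma-moderated adjusted p of 5.35e-05 and 2.41e-05), as they were with no robust step besides (0.0169 and 0.0218). Pseudogenes overlapped 4 of the 10 lowest and 3 of the 10 highest, against 129 of all 1122 islands with at least 20 calls. The 10 lowest had a median length of 267 bp and the 10 highest of 381 bp, against 383.5 bp of the 1122.

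**Figure D4:**
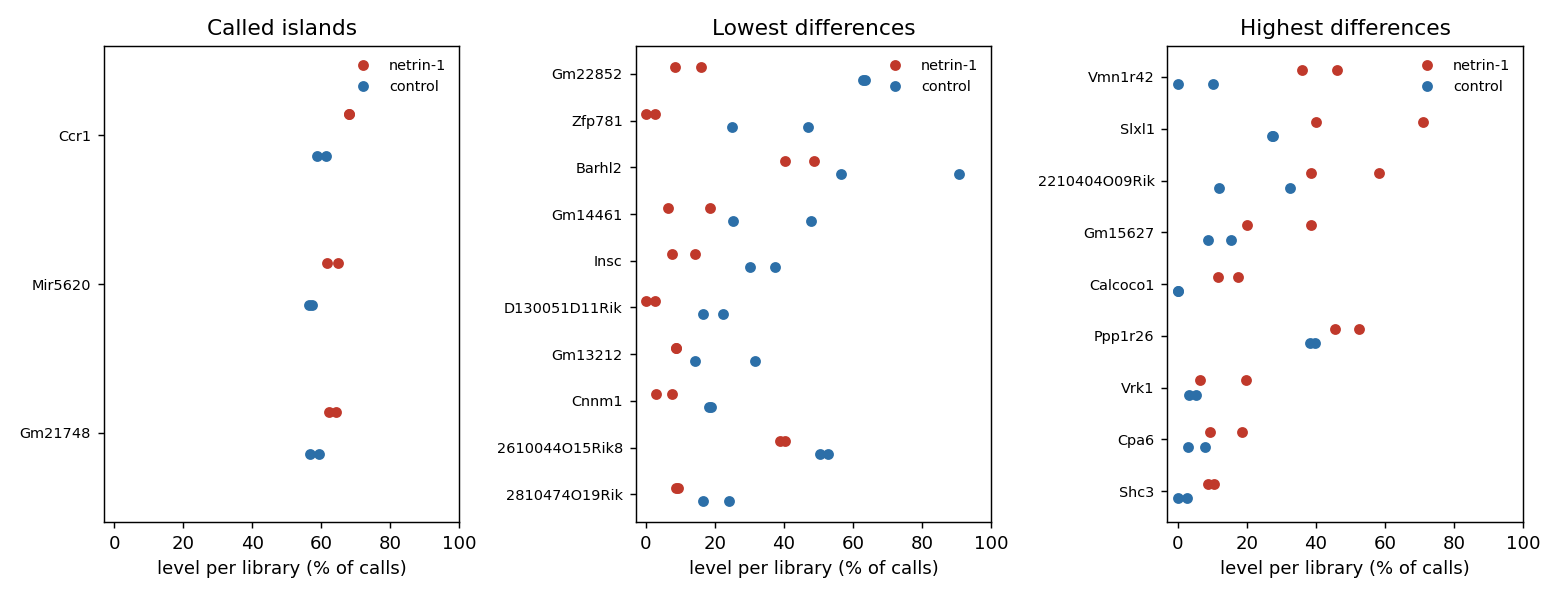
Level per library, in percent of calls, of the 3 called islands and of those with the lowest and highest differences, each named by the gene it is listed under. Red points are netrin-1 and blue points control libraries; the Ccr1 island, called and also among the highest, is drawn once.

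Among islands with at least 20 calls in every library, the 5 of highest mean level included the called ones listed under Ccr1 and Gm21748. The highest of these, also listed under Gm21748 (chrY:90818330-90818565), had 80.5% and 78.8% in the netrin-1 libraries, against 82.7% and 81.2% in the control libraries (adjusted p = 0.802). That listed under Ccdc160 on chromosome X, over the pseudogene Gm14586, had 73.3% and 68.5% in the netrin-1 libraries, against 55.9% and 77.1% in the control libraries (adjusted p = 0.977). That listed under Bicd1, over the pseudogene Gm15784, had 82.8% and 68.2% in the netrin-1 libraries, against 68.3% and 40.3% in the control libraries (adjusted p = 0.242). The groups overlapped at Ccdc160 and Bicd1, whose control replicates were the farthest apart of the 5.

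Islands listed as intergenic were set against the RefSeq annotation (GRCm38.p6), a division chosen after the levels had been seen. Of the 1470, 763 overlapped a RefSeq gene and 204 held a RefSeq promoter, so the deposited type does not mean that no gene is annotated there. Pseudogenes without such a promoter overlapped 193 islands. The 183 islands with a promoter and calls in all libraries averaged 2.40% and 2.14% in the netrin-1 libraries, against 2.24% and 2.28% in the control libraries. These groups overlapped, and the difference was 0.0132 points. For the 180 of the 183 islands with a mean level under 20% it was -0.0916 points, again with overlapping groups. The gap between all 183 islands and the other intergenic islands was -1.49 and -1.45 points in the netrin-1 libraries, against -2.30 and -2.36 points in the control libraries. The gap differed by 0.860 points without overlap (exact two-sided permutation p = 0.33).

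The 142 islands over pseudogenes had the highest levels, with 15 of them (10.6%) at 20% or more. They averaged 7.38% and 6.64% in the netrin-1 libraries, against 8.95% and 8.31% in the control libraries, a difference of -1.62 points. Relative to the other intergenic islands the gap differed by -1.03 points (exact two-sided permutation p = 0.33), and by only -0.0932 points among islands with at least 50 calls in every library. Without control replicate 1 it differed by -0.613 points. Islands over other parts of genes averaged 2.24% ± 0.108 in netrin-1 cells and 3.01% ± 0.0223 in control cells (SD, n = 2 each; 304 islands). Islands with no gene averaged 3.73% ± 0.310 in netrin-1 cells and 4.42% ± 0.269 in control cells (SD, n = 2 each; 550 islands). Reads from a pseudogene and its parent gene can be near-identical, and no source used here gives how the authors placed such reads.

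**Figure D5:**
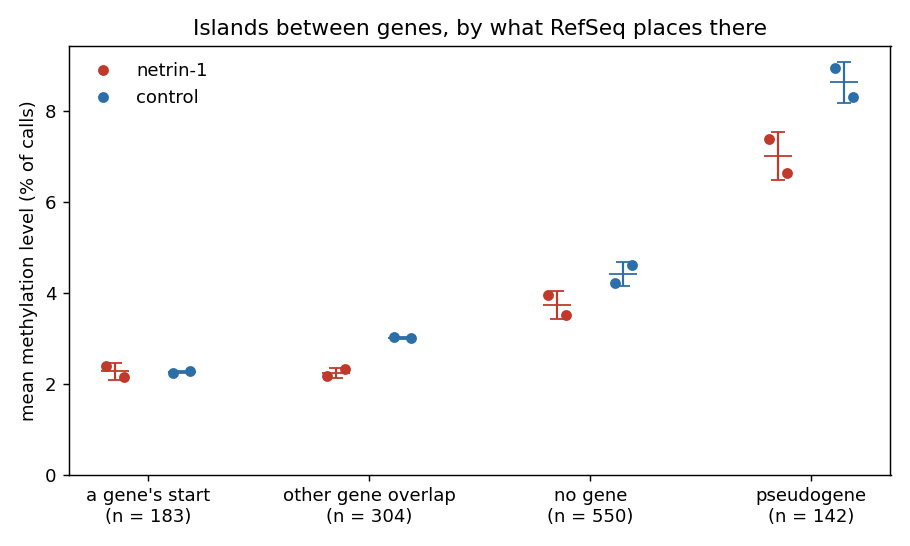
Mean level per library, in percent of calls, of intergenic islands by what RefSeq annotates there. Points are libraries and bars the mean ± SD; islands at a gene's start overlap between groups at 2.14% to 2.40%, and those over pseudogenes lie at 6.64% to 8.95%.

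Over all covered islands the mean was lower in both netrin-1 libraries whatever the coverage per position. In 4 groups of 294 or 295 islands, from the fewest to the most calls per position, the difference was -0.832, -0.753, -0.698 and -0.570 points. A few islands of very high coverage more often had the other direction, and the part of coverage there was not tested. The median island had 13.6 calls per covered position and library, and 21 intergenic islands had at least 4 times that (54.4), a limit chosen after the values had been seen. In 10 of the 21 both netrin-1 libraries lay over both controls, where 12.4% of all features and 24.6% of all islands of such coverage did. In 3 of the 21 both lay under both controls, where 30.4% and 23.1% did. The tested islands with an unadjusted p under 0.05 had a median of 56.8 calls per position among the higher and 23.4 among the lower. The called islands listed under Mir5620 and Ccr1 were among the 21, with 127 and 86.5 calls per position, and the one listed under Gm21748 had 46.3. Scaled for depth, netrin-1 libraries had 1.197, 1.22 and 1.04 times the calls of control libraries at the Mir5620, Ccr1 and Gm21748 islands. Among the 5 islands with the most calls, 4 had both netrin-1 libraries over both controls, and the exception was listed under Gm15319. Of these, the island listed under Gm21860 on chromosome Y had 31.6% and 34.0% in the netrin-1 libraries, against 30.8% and 25.8% in the control libraries (adjusted p = 0.225). The second by calls per position, listed under Olfr726, an olfactory receptor gene, had 543 calls per position and 0.982% and 0.806% in the netrin-1 libraries, against 0.753% and 0.487% in the control libraries (adjusted p = 0.737). At that listed under Gm20546, the netrin-1 libraries had 2.01% and 2.06%, against 1.51% and 1.23% in the control libraries (adjusted p = 0.23). Most islands of high coverage were thus unmethylated, with 15 of the 21 under 5%, and differences among those of -1.28 to 4.16 points.

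Islands near genes of 5 lists were counted by the gene they are listed under. Developmental regulators, the homeobox, T-box, Sox, Pax and similar genes whose islands are known targets of Polycomb in stem cells, had 125 islands, 108 of them with at least 10 calls. Of the 108, 74 were lower and 34 higher in netrin-1 cells, with a median difference of -0.551 points against -0.199 over all 1149 islands. Both netrin-1 libraries lay under both controls in 33 (30.6%) and over them in 8 (7.41%), against 24.4% and 13.5% over all. Of all features, 23.6% and 11.2% did. The median level of the developmental islands was 1.69%, against 1.30% over all 1149, and the part of level in these shares was not tested. The mean level of the developmental islands was 3.37% in netrin-1 cells and 4.31% in control cells. Of the 15 tested, 0 were called by the quasi-binomial model, where 0.186% of all features and 3 of the 122 intergenic islands were. By unadjusted p under 0.05 there were 3 of the 15, where 12.1% of all features, 14.1% of all islands and 29 of the 122 (23.8%) passed. Of the 5 of highest level, the first is the Barhl2 island given above, with a difference of -29.1 points without overlap (adjusted p = 0.277). By contrast, the island listed under Nkx1-1, a homeobox gene 8933 bp away, had 26.8% and 22.6% in the netrin-1 libraries, against 16.1% and 18.5% in the control libraries (adjusted p = 0.454). A further one, listed under Nkx2-5, a homeobox gene of heart development, had 22.8% and 23.5% in the netrin-1 libraries, against 13.8% and 19.4% in the control libraries (adjusted p = 0.377). The groups did not overlap at either, and neither passed the adjusted test. Islands listed under Tbx5 and Hoxc4 had overlapping groups. The Tbx5 and Nkx2-5 islands overlap the RefSeq gene they are listed under.

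Imprinted genes had 8 intergenic islands, 5 of them with at least 10 calls. The islands listed under Dio3, a thyroid hormone deiodinase gene of an imprinted cluster, had 14.5% and 9.74% in the netrin-1 libraries, against 15.7% and 12.4% in the control libraries at one, with overlapping groups. At the other they had 0% of 63 calls, which allows up to 4.76%, and 0.862% in the netrin-1 libraries, against 2.41% and 7.69% in the control libraries. The islands listed under Cdkn1c, a cell cycle inhibitor gene, and Usp29, a gene of the Peg3 cluster, were at most 3.29% in every library. The pluripotency list gave 3 islands, of which one listed under Sox2 and inside Sox2ot had 4.84% and 0.566% in the netrin-1 libraries, against 16.2% and 4.42% in the control libraries, with overlapping groups. The other, also listed under Sox2, and one under Klf4 were at most 2.42% in every library. The netrin pathway gave 1 island, listed under Rgmb, whose product is a guidance protein that binds neogenin. That island lay 3957 bp from the listed start and held a RefSeq promoter of Rgmb itself. It had 0.558% and 1.26% in the netrin-1 libraries, against 1.28% and 0.649% in the control libraries, with overlapping groups. The germline list gave 1 island, which had fewer than 10 calls in a library.

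Most islands of at least 20% were short. In the 299 shortest covered islands, of 201 to 268 bp, the mean level was 6.07% in netrin-1 cells and 7.57% in control cells, and 29 of the 46 islands of at least 20% were there. In the 295 longest it was 2.20% in netrin-1 cells and 2.51% in control cells. The difference was -1.50 points in the shortest and -0.319 points in the longest. The 295 islands nearest to the listed start averaged 2.26% in netrin-1 cells and 2.95% in control cells. The 295 farthest averaged 4.95% in netrin-1 cells and 5.54% in control cells, with overlapping groups. Of 20 chromosomes other than Y, 18 had a lower mean in netrin-1 cells, 13 with both netrin-1 libraries under both controls. Chromosome 14 alone had both over both controls, by 1.15 points, and the 7 covered islands of chromosome Y averaged 40.3% in netrin-1 cells and 39.5% in control cells, with overlapping groups.

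The surroundings of the islands were more methylated and also lower in netrin-1 cells. The islands' own shores, the flanks beside an island, averaged 11.3% and 10.3% in the netrin-1 libraries, against 12.5% and 12.5% in the control libraries (1026 islands with shores). The 100 kb windows holding an island averaged 33.5% and 31.7% in the netrin-1 libraries, against 34.8% and 35.4% in the control libraries (1173 islands). The differences were -1.67 points in shores and -2.52 points in windows, both without overlap (exact two-sided permutation p = 0.33 for each). Shores of the islands of at least 20% averaged 37.3% in netrin-1 cells and 37.8% in control cells, with overlapping groups.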

How the data were processed

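DNA methylation was measured by RRBS in 2 netrin-1 and 2 control libraries, grouped by their titles. Per the labels' protocols, DNA was cut with MspI, selected on a gel, bisulfite converted and sequenced as read pairs. FastQC and the builds mm10 and GRCm38 are named in the submitters' processing notes. Aligner, caller and conversion rate: not given in the sources used here. Per the file headers, the authors' tables give for each feature and library the count of total calls, the count of methylated calls and the methylation fraction. The deposited fraction was recomputed as a percent from the counts.

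Class means were unweighted over islands with calls in all 4 libraries and compared by exact two-sided permutation tests over libraries, whose smallest p is 0.33. For single features a quasi-binomial logistic model was fitted to methylated and unmethylated calls over the whole CpG island table, with dispersion moderated by limma 3.58.1 in R 4.3.3 (trend on coverage, robust, floor of 1) and Benjamini-Hochberg adjustment over 11815 features. Features needed at least 10 calls in every library, levels not identical in all 4, and calls × level × (1 - level) averaging at least 25 per library. The model was tested on simulated data. Python 3.11.15 with numpy 2.4.6, pandas 2.3.3, scipy 1.17.1 and matplotlib 3.10.9 did the rest. RefSeq positions (GRCm38.p6, the coordinates of mm10) gave the overlaps. Levels at 0% allow up to 3 calls of the library's total, which covers counting error only, as calls from amplified reads are not independent.

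Islands were named if called, if among the 10 lowest or 10 highest non-overlapping differences with at least 20 calls, if among the 5 of highest level or most calls, or if near a listed gene. The islands, the gene lists and the tests were chosen with earlier results of these data known. Islands named for the lowest p-values, the division by RefSeq and the coverage limit were chosen after the values had been seen. Islands without calls in all 4 libraries entered no comparison.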

Additional observations from a re-analysis of the deposited data

How the results depend on the processing

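The mean level of intergenic islands was -0.860 to -0.566 points in netrin-1 minus control cells when each library was left out in turn, and 0.253 points when weighted by calls. Islands of at least 20% gave 5.60 points weighted by calls, 0.592 as a median, 0.428 with at least 50 calls, 2.27 with at least 10 covered positions, and -4.20 to 0.401 with a library left out, against -3.92 without the sex chromosomes and the islands of most calls, and -1.35 with at least 10 calls. The change of the gap to start site islands was 0.377 weighted by calls and -0.648 to -0.424 with a library left out. That of the gap to intragenic islands was -0.245 to 0.459. The cause of these shifts was not tested.

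The count of called islands was 18 with no information minimum and 6 with neither that minimum nor the robust step, of 1119 tested in each. It was 0 with an unmoderated dispersion (9 at an unadjusted p under 0.05), 0 with limma on percentage points (21) and 0 with limma on M values (23), and 4 to 8 with a library left out. All features gave 412 and 59 calls of 42735 tested in the first pair of settings, against 22 of 11815 in the main fit. Same-numbered libraries of both groups did not deviate together over all tested features (correlation -0.000352, 11815 features), while the correlation was 0.205 over the 122 tested islands. With 2 pairs and no label that says so, the numbers were not taken as pairs. With a replicate block 2 islands were called, 1 of them among the 3; the Ccr1 island had an adjusted p of 0.0157, the Mir5620 island 0.0981 and the Gm21748 island 0.177. The block left the differences of class means at -0.713 points for all islands, with -0.517 and -0.910 in the pairs.

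Centring each library gave opposite signs, in natural log odds, at the islands listed under Gm21748 (chrY:90818330, 0.0213), Tbx5 (0.136) and Cdkn1c (0.0864). With 1 library left out the sign turned at those listed under Ccdc160 (-6.19 to 15.05 points), Tbx5 (-3.5 to 2.11), Hoxc4 (-3.92 to 4.86), Dio3 (-4.28 to 0.467), Cdkn1c (-0.878 to 0.375, with 0.0805 without netrin-1 replicate 1), Rgmb (-0.409 to 0.297) and Klf4 (-0.246 to 0.740). Depth limits single islands: only 122 held enough information, and a 0% from 20 calls allows up to 15%. The gaps by RefSeq class and the pooled value without 1 island were added after seeing the data.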

Other observations

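Islands of equal length and CpG number on chromosome Y differed in level. The islands at chrY:90818330-90818565 and chrY:90824267-90824502, both listed under Gm21748, have the same length of 236 bp and the same 28 CpG. The first had 80.5% and 78.8% in the netrin-1 libraries, against 82.7% and 81.2% in the control libraries. The second had 45.3% and 46.6% in the netrin-1 libraries, against 47.7% and 44.9% in the control libraries. Each value came from 591 to 1216 calls, so the islands differed from each other far more than either differed between groups.

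Such sets of islands with equal length, CpG and GC counts held 43 of the 1470 islands in 18 sets. Of the 43, 67.4% lacked calls in at least 1 library, against 19.8% of all 1470. Near Ezh2, a Polycomb methyltransferase gene, islands of 776 or 782 bp and 63 CpG each recurred along chromosome 6. Those with at least 20 calls had at most 3.03% in the netrin-1 libraries and at most 3.61% in the control libraries.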
